A study of Rattus norvegicus with 96 samples.

Results

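The immediate early genes are the genes that neurons switch on within minutes of strong synaptic input, without first having to make new protein. The set described here holds 10 of them, chosen by name: the AP-1 subunits Fos, Fosb and Junb, the zinc-finger factors Egr1 and Egr2, the orphan nuclear receptor Nr4a1, the neuronal factor Npas4, the dendritic protein Arc, the phosphatase Dusp1 and the scaffold Homer1. Each gene was read from the probe set that names it alone and, where there were several, from the one with the highest mean. A probe set met that rule for 9 of the 10 genes, among 14218 genes read in this way. No probe set named Npas4 alone, so Npas4 has no value here.

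The animals, adult male Wistar rats, came from a study of alcohol drinking in which 8 brain regions were microdissected and each was profiled on Affymetrix RN230.2 arrays. Naive rats had no alcohol and were of the same age as the others. Non-dependent rats had learned to press a lever for 10% alcohol, drank it unsweetened over 4 weeks, and were then kept in air in place of the vapor. Dependent rats had the same training and then 4 weeks of intermittent ethanol vapor. Both drinking groups were tested for drinking once more, which for dependent rats was 6 to 8 h into withdrawal. The tissue of all groups was collected later, with 3 weeks between the last vapor and death for the dependent rats. The study states 4 rats in a group. The regions were the medial prefrontal cortex (mPFC), the core (NAcC) and shell (NAcSh) of the nucleus accumbens, the central (CeA) and basolateral (BLA) nuclei of the amygdala, the dorsolateral (dlBNST) and ventral (vBNST) bed nucleus of the stria terminalis, and the ventral tegmental area (VTA). Of the 96 arrays, 4 were left out by the rule that defined the gene set: non-dependent array 2 in the CeA and in the VTA, non-dependent array 3 in the BLA and dependent array 1 in the vBNST. That left 92 arrays, with 4 or 3 in each group and region.

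Calcium entry and kinase cascades act on factors already bound at these genes, among them CREB at cyclic AMP response elements and serum response factor with its partners at CArG boxes. The transcripts usually appear and decay within hours, and the proteins then act on slower genes or at the synapse. Fos is widely used as a mark of recently active neurons, Arc removes AMPA receptors from synapses, Dusp1 switches off MAP kinases, and Homer1 makes both a long scaffold of metabotropic glutamate receptors and a short form that activity induces. In brain, Egr1 and Fosb are also present at rest.

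The control letters themselves were examined in the promoters of RefSeq (build GRCr8), where 8 of the 10 genes had an entry of 300 bases, from 250 before to 50 after the start. Fos and Arc had none. The sequences below are shown because Egr2 is one of the genes that differed between groups, while Nr4a1 and Dusp1 varied together from array to array. Each is the 250 bases before the start, on the strand of the gene, and capitals mark matches on either strand to the full cyclic AMP element TGACGTCA, its shorter form CGTCA, or a CArG box. They lie at chr20:21054442-21054691 (minus strand), chr7:134259888-134260137 (plus strand) and chr10:17184603-17184852 (plus strand).
Egr2: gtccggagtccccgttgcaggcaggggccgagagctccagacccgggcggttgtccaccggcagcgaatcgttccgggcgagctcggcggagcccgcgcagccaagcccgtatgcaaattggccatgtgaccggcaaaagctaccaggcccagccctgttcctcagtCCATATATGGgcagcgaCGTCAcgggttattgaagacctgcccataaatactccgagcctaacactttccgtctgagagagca
Nr4a1: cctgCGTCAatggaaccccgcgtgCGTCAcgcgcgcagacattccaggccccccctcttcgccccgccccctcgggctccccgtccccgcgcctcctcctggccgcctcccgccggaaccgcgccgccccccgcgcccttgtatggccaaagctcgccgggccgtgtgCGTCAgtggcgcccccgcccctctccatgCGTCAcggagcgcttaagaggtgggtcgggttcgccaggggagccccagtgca
Dusp1: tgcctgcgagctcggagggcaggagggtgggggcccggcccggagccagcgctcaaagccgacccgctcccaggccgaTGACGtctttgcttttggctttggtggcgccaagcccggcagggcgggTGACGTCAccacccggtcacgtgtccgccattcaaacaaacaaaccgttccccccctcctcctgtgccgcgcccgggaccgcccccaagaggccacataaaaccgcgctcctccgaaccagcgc
The shorter form CGTCA was found in 5 of the 8 promoters (Junb, Egr1, Egr2, Nr4a1 and Dusp1) and in 21.2% of the 33469 promoters in the table. Nr4a1 held 4 copies and Dusp1 3, where a full element counts as 2 because it reads the same on both strands. The full element TGACGTCA was in Dusp1 alone of the 8, and in 1.83% of all promoters. A CArG box stood in Egr1 (2 copies) and Egr2 (1 copy), against 1.64% of all promoters. The letters TATAAA were in Junb on the strand of the gene, and in Fosb and Homer1 only on the other strand (read as TTTATA). On either strand they were in 14.2% of all promoters. These are matches of letters and not measured binding.

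Values are given as deposited, as log2 signal after GCRMA, an array normalization that subtracts background by probe sequence. A difference of 1 is therefore a doubling of signal, and levels of different genes cannot be set against each other because each probe set has its own affinity. A gene was tested in a region when its mean over that region's arrays was above 4, which took in Fos, Egr1, Egr2, Dusp1 and Homer1 in 8 regions, Fosb in 6, Nr4a1 in 4, Arc in the mPFC only and Junb in none. Junb lay between 2.16 and 3.81 on every array used, so this probe set says little about that gene. The alternative probe sets of Fos (mean 1.94), Egr2 (2.80) and Dusp1 (2.25) were dim.

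For the VTA and the NAcC a regional marker was set against the label. The VTA of naive rats had the dopamine transporter gene Slc6a3 at 10.4 against 2.83 to 3.19 in the other regions. The NAcC had the medium spiny neuron gene Adora2a at 10.0, against 7.79 in the NAcSh and 2.85 to 4.45 elsewhere. No marker list was made for the CeA or the BNST regions. The mean of 18 hybridization control probe sets, which report the array step and not the tissue, ran from 7.44 to 10.4 on the arrays used and from 10.8 to 14.3 on the 4 left out. The lowest 4 of the arrays used were NAcC non-dependent 4, NAcC dependent 3, BLA dependent 1 and BLA dependent 4 (7.44 to 7.97), and Fos and Egr2 in the NAcC and BLA are also given without them. Other members moved too, such as Dusp1 in the BLA, whose naive to dependent difference went from 0.40 to 0.00075. NAcSh naive 2 had cortical glutamatergic neuron markers at 6.32 and NAcSh dependent 3 had them at 5.10, where the other NAcSh arrays had 2.87 to 3.23. Fewer cells of a type and less RNA per cell cannot be told apart in such tissue.

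In naive rats, which had no alcohol, Egr1, Fosb and Homer1 spanned the widest range over regions, with Nr4a1 and Egr2 next. Dusp1 and Fos spanned about 1 or less on the log2 scale. Egr1 was highest in the mPFC (12.46 ± 0.065, SD, n = 4) and lowest in the VTA (7.44 ± 0.70), a span of 5.01 or 32.3-fold. Homer1 ran in the same order of regions, from 11.05 ± 0.029 in the mPFC to 7.09 ± 0.27 in the VTA. Fosb peaked in the NAcC (7.13 ± 0.65) and ended in the VTA (2.53 ± 0.31). Differences among regions passed the threshold of adjusted p 0.05 for 6 of the 7 members tested in naive rats (limma moderated F, Benjamini-Hochberg), in a comparison where 96.6% of all 8792 genes passed it. Fos was the exception, with adjusted p = 0.507. Nr4a1, among those that passed, met the limit for testing only through the mPFC, where it was high.

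The 4 naive values of Fos were 7.30 to 8.33 in the CeA, where the mean was highest (7.90 ± 0.49), and 6.12 to 7.81 in the NAcC, where it was lowest (7.08 ± 0.71). The ranges of those regions overlap, and none of the 7 pairs of neighbours in the Fos order differed past the threshold. In the VTA, where Egr1, Fosb and Homer1 were all at their lowest, Fos stood at 6.58 to 8.48 and its mean took place 5 in the order of 8.

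Egr1 had its 4 naive values between 12.38 and 12.54 in the mPFC, followed by the NAcC, BLA, NAcSh, CeA, dlBNST, vBNST and VTA. Neighbours in that order differed past the threshold at 3 places: from NAcSh to CeA by 0.61 ± 0.19 (SE), from dlBNST to vBNST by 1.05 ± 0.19 and from vBNST to VTA by 2.56 ± 0.19 (limma adjusted p = 0.015, 3.7e-04 and 1.7e-11). Among the 4 regions at the top, mPFC to NAcSh, no step between neighbours passed. The ends of that run were apart: from the mPFC, Egr1 differed by -0.55 ± 0.19 in the BLA and -0.60 ± 0.19 in the NAcSh. The limma adjusted p was 0.0131 and 0.00721, where 72.1% and 76.4% of all genes passed. The VTA was also where naive Egr1 was least even, at 6.42, 7.56, 7.81 and 7.97.

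Egr2 was highest in the NAcC (6.14 to 7.41) and lowest in the vBNST (3.57 to 4.51). The regions formed an upper set of NAcC, BLA, NAcSh, mPFC and CeA, with means of 6.69 to 5.85, and a lower set of dlBNST, VTA and vBNST, with means of 4.77 to 3.88. The single step between neighbours past the threshold lay between these sets, from CeA to dlBNST (1.08 ± 0.31, limma adjusted p = 0.00868). Within the upper set the NAcC was above the mPFC by 0.80 ± 0.31 (limma adjusted p = 0.0204).

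Fosb, whose splice product deltaFosB is known for its stability in striatal neurons, was highest in the NAcC by 1.23 ± 0.33 over the NAcSh (limma adjusted p = 0.0124). All 4 naive NAcC values (6.36 to 7.93) lay above all 4 of the NAcSh (5.80 to 6.07). It also stepped down from dlBNST to vBNST and from vBNST to VTA (adjusted p = 0.0212 and 0.0265). The naive means of the vBNST (3.44) and VTA (2.53) were under the limit of 4, so the size of these steps is uncertain. In the mPFC 1 naive array stood at 6.89 while the other 3 lay between 4.96 and 5.21.

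Nr4a1 had 1 step, and it was the largest gap between neighbours for that gene: 6.38 ± 0.48 in the mPFC against 4.27 ± 0.48 in the NAcC, a difference of 2.11 ± 0.20 (limma adjusted p = 2.05e-10). Its naive means were 4.27 to 4.03 in the NAcC, BLA and NAcSh and 3.86 to 3.56 in the CeA, dlBNST, vBNST and VTA. The gene thus met the limit of 4 over the naive arrays only through the mPFC. Its tests among regions are therefore not independent of that filter. Arc had its highest value there as well, at 4.41 to 5.74 in the mPFC and 2.85 to 3.65 everywhere else, but its overall mean was below the limit for testing. Among all genes, 30.6% were highest in the mPFC of naive rats, so a peak in that region was common.

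Dusp1 differed among regions (adjusted p = 0.00133) without any step between neighbours past the threshold, from 5.45 ± 0.54 in the mPFC to 4.40 ± 0.34 in the vBNST. Homer1 had the most steps, 4 of 7: NAcC to BLA, NAcSh to CeA, dlBNST to vBNST and vBNST to VTA, each by 0.60 to 1.02. Of all genes, the pairs of regions at which a member stepped separated 75.3% (mPFC and NAcC), 13.1% (NAcC and NAcSh), 32.8% (NAcC and BLA), 36.5% (NAcSh and CeA), 28% (CeA and dlBNST), 16.9% (dlBNST and vBNST) and 46.2% (vBNST and VTA). Its naive values in the mPFC and NAcC were tight, from 11.03 to 11.09 and from 10.97 to 11.01. Over all groups, the other 4 probe sets of Homer1 also had their lowest region mean in the VTA. Their highest lay in the NAcC (5.35 and 9.55), the BLA (9.26) and the mPFC (7.27), so most of them did not share the mPFC peak. The annotation does not say which of the long and short forms each one reads.

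**Figure D1:**
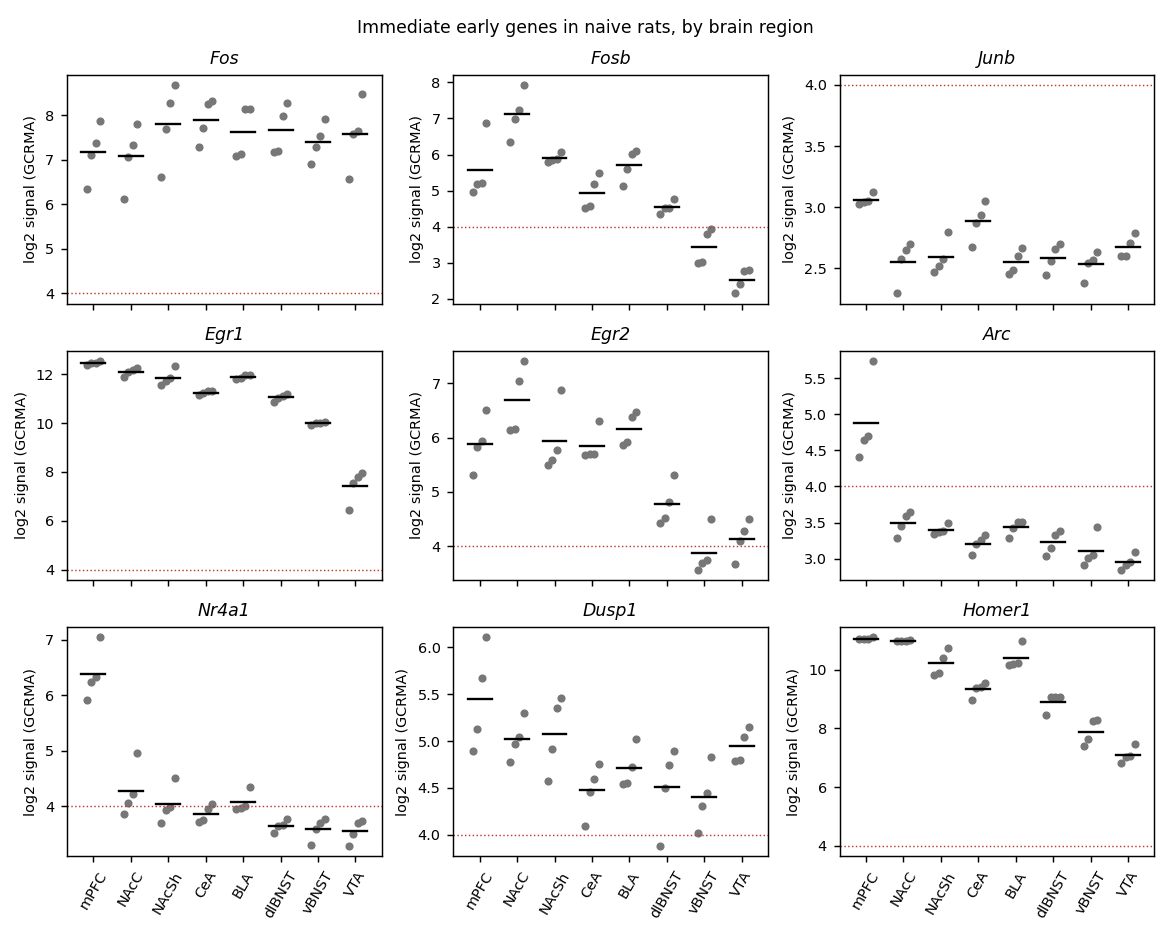
Log2 GCRMA signal of the 9 measured immediate early genes in naive rats, with a panel for each gene and its own vertical scale, the 8 brain regions on the horizontal axis, a point for each of 4 arrays and a bar at their mean; the dotted line is the limit of 4 for testing. Egr1 and Homer1 descend from the mPFC to the VTA, Nr4a1 and Arc peak in the mPFC, and Fos overlaps across regions.

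The main question of the design is whether drinking, or drinking after dependence, left a mark on these genes. Averaged over the 8 regions, Egr2 and Egr1 were higher in dependent than in naive rats. For Egr2 the difference was 0.98 ± 0.23 (SE), or 1.98-fold, with adjusted p = 0.025 in limma. For Egr1 it was 0.33 ± 0.084, or 1.26-fold, with adjusted p = 0.0334. Thus 2 of the 7 members tested passed, both of them higher, in a comparison where 7.14% of 8762 genes passed. Fosb (0.36 ± 0.12, adjusted p = 0.0869) and Fos (0.63 ± 0.24, adjusted p = 0.127) did not pass. Nr4a1, Dusp1 and Homer1 had differences of 0.070 ± 0.087, 0.022 ± 0.096 and 0.035 ± 0.077.

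These tests used 12 values for each gene, each the mean over regions of the arrays of 1 group and 1 replicate number, after the region mean was removed. For Egr2 the 4 naive values were -0.37, -0.75, -0.50 and -0.46, the non-dependent ones 0.070, -0.082, -0.38 and 0.64, and the dependent ones 0.59, 0.10, 0.0037 and 1.15. Every dependent value was above every naive one, and the non-dependent values spanned both. For Egr1 the naive values were -0.055, -0.16, -0.15 and -0.29, the non-dependent ones -0.040, -0.029, -0.13 and 0.19, and the dependent ones 0.19, -0.0011, 0.084 and 0.38. The dependent and naive groups did not overlap for Egr1 either.

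The averaged Fos values of naive rats were -0.37, -0.89, -0.11 and -0.062, and those of dependent rats 0.55, -0.35, 0.16 and 0.71, so 1 dependent value lay among the naive ones. The labels do not tie a number to the same rat across regions, and arrays of 1 number in different regions were no more alike than others (mean correlation 0.011 against -0.0040). The averages may thus mix rats, and their spread may understate the spread between rats.

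The averaged calls depended on single values. Without 1 averaged value at a time, Egr2 passed in 9 of 12 refits (0.75 to 1.13, adjusted p 0.016 to 0.0653) and Egr1 in 7 of 12 (0.25 to 0.39, adjusted p 0.0237 to 0.0953). Leaving out the BLA or the dlBNST, tried after seeing the data, ended both calls (adjusted p = 0.0504 and 0.0833 for Egr2, 0.0524 and 0.131 for Egr1), and leaving out the vBNST ended that of Egr1 (0.105). Both calls ended without naive 2 (adjusted p = 0.0598 for Egr2, 0.0626 for Egr1), naive 4 (0.0563 and 0.0953) or dependent 1 (0.0653 and 0.0794), and Egr1 alone also without naive 3 (0.0522) or dependent 4 (0.0729). With all 96 arrays neither passed: Egr2 was 0.95 (adjusted p = 0.343) and Egr1 0.34 (adjusted p = 0.874). Without the 4 arrays of lowest hybridization controls, which was tried after seeing the data, both still passed, Egr2 at 0.92 (adjusted p = 0.0224) and Egr1 at 0.32 (adjusted p = 0.0375), as they did without both NAcSh arrays that carried cortical markers (0.97 and 0.33, adjusted p = 0.0241 and 0.0352).

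Cell markers and a sign of RNA quality were read beside the averaged result. From naive to dependent the mean of 5 neuron markers shifted by -0.027 averaged over the 8 regions and that of 6 astrocyte markers by -0.089. Oligodendrocyte markers (5 of 6 listed genes measured) shifted by -0.20 and were lower in dependent rats in 7 of the 8 regions, medium spiny neuron markers (5 genes) by 0.15 and blood markers (2 of 3) by 0.12. The excess of 3′ over 5′ Gapdh signal, which grows as RNA degrades or amplification shortens it, was lower in dependent than naive rats in 7 of 8 regions, from -0.086 in the CeA to -0.87 in the vBNST, and 0.52 higher in the NAcSh. The part of these shifts in the differences of Egr1 and Egr2 was not tested.

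Between naive and non-dependent rats, averaged in the same way, none of the 7 members passed (0.628% of all genes did). Egr2 came nearest at 0.58 ± 0.23 (adjusted p = 0.224), and 1 of the 7 had an unadjusted p under 0.05, against 17.2% of all genes. Between non-dependent and dependent rats none passed either (0.0228% of all genes did), and no member had an unadjusted p under 0.05 (12.9% of all genes did). Egr1 was 0.17 ± 0.084 higher in the dependent group and Egr2 0.40 ± 0.23. These comparisons share their groups with that of naive and dependent rats, so the values are not independent of it.

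**Figure D2:**
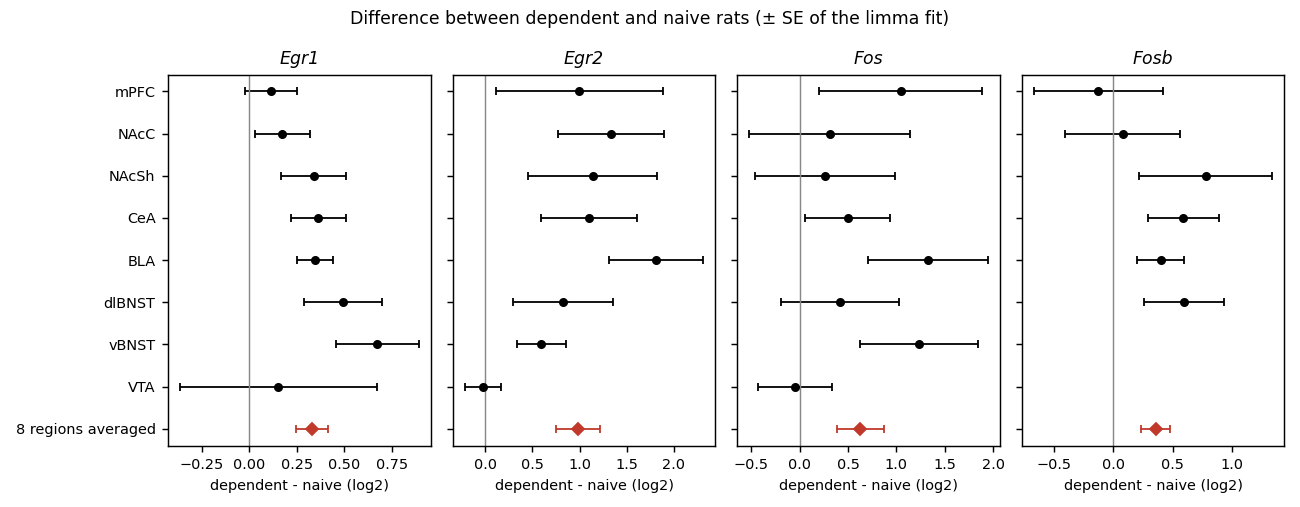
Difference between dependent and naive rats in log2 signal (horizontal axis, its own scale in each panel) for Egr1, Egr2, Fos and Fosb by brain region (black circles, where the gene was tested) and averaged over the 8 regions (red diamonds), with bars for 1 SE of the limma fit. Egr1 lies right of 0 in every region, from 0.12 in the mPFC to 0.67 in the vBNST, and the VTA is near 0 for Egr2 and Fos.

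Within single regions no member passed in any comparison. Over the regions where each gene could be tested there were 51 member tests in a comparison, of which 0 passed in limma between naive and non-dependent, 0 between non-dependent and dependent and 0 between naive and dependent (0.0101%, 0% and 0.0202% of all gene tests passed). At an unadjusted p under 0.05 there were 3, 7 and 7 of 51, where all genes gave 7.84%, 7.17% and 11.3%. All 7 between non-dependent and dependent, and all 7 between naive and dependent, were higher in dependent rats. Of all gene tests, 3.17% and 4.14% were under 0.05 and higher there. The 7 between naive and dependent rats came from Egr1 (4 regions) and Egr2 (3 regions) alone, and the regions may share rats. In 1 test of each 7 the lower group lay under the limit of 4 (Egr2 in the vBNST, naive mean 3.88, and Nr4a1 in the BLA, non-dependent mean 3.97), so that it was tested only through the higher groups, and 6 and 6 remain without them. The median member difference was 0.20, 0.046 and 0.26, against -0.014, -0.014 and -0.028 over all genes. Member values were higher in the second group in 35, 29 and 39 of 51, where all genes gave 46.7%, 46.7% and 43.9%. A test of whether the group differences varied among regions passed for none of the 7 members (limma interaction F, adjusted p 0.757 to 0.972; 2.35% of all genes passed), and none had an unadjusted p under 0.05 (16.9% of all genes did).

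Egr1, a plasticity factor with a high resting level in forebrain, was higher in dependent than in naive rats in 8 of 8 regions. Of the 7714 genes tested in every region, 1.61% were higher in all 8. In the vBNST the naive arrays read 10.02, 10.01, 10.05 and 9.92, the non-dependent 10.36, 10.08, 11.00 and 10.18, and the 3 dependent 10.25, 10.67 and 11.10. All arrays of both drinking groups were above all naive ones there. The Gapdh excess separated the same arrays, at 2.40 to 2.95 in naive, 1.76 to 2.07 in non-dependent and 1.75 to 1.82 in dependent rats, and its part in the Egr1 values was not tested. The naive to dependent difference was 0.67 ± 0.22 (limma adjusted p = 0.199), the lowest adjusted p of any member in that comparison.

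In the CeA Egr1 read 11.17, 11.30, 11.23 and 11.30 in naive rats and 11.82, 11.49, 11.45 and 11.69 in dependent rats, again without overlap (0.36 ± 0.15, limma adjusted p = 0.663). In the dlBNST the naive values were 11.10, 10.88, 11.03 and 11.21 and the dependent ones 11.20, 11.30, 12.09 and 11.60, so they touched (0.49 ± 0.20, adjusted p = 0.270). Naive and dependent Egr1 were apart in 3 regions, the BLA, CeA and vBNST, and members of any kind in 3 of 51 tests, where 2.34% of all gene tests were apart in that direction. In these regions other markers moved too. Medium spiny neuron markers were 0.42 higher in dependent than naive rats in the vBNST and 0.32 higher in the CeA, choroid plexus and ependymal markers (3 of 4 listed genes measured, 1 above the limit) 0.79 higher in the vBNST, and oligodendrocyte markers 0.49 lower in the CeA, and their part in the Egr1 values was not tested.

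Egr1 differed least between naive and dependent rats in the mPFC and was most uneven in the VTA. In the mPFC the groups had means of 12.46, 12.57 and 12.57, and the naive to dependent difference was 0.12 ± 0.14. In the VTA the non-dependent values were 6.87, 6.51 and 8.74 and the dependent ones 8.20, 7.34, 6.66 and 8.18, which left a difference from naive rats of 0.15 ± 0.52. In the NAcSh the naive values 12.32, 11.85, 11.71 and 11.56 and the non-dependent values 12.63, 12.03, 12.31 and 12.15 differed by 0.42 ± 0.17 (adjusted p = 0.951), and the value was 0.41 without NAcSh naive 2.

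**Figure D3:**
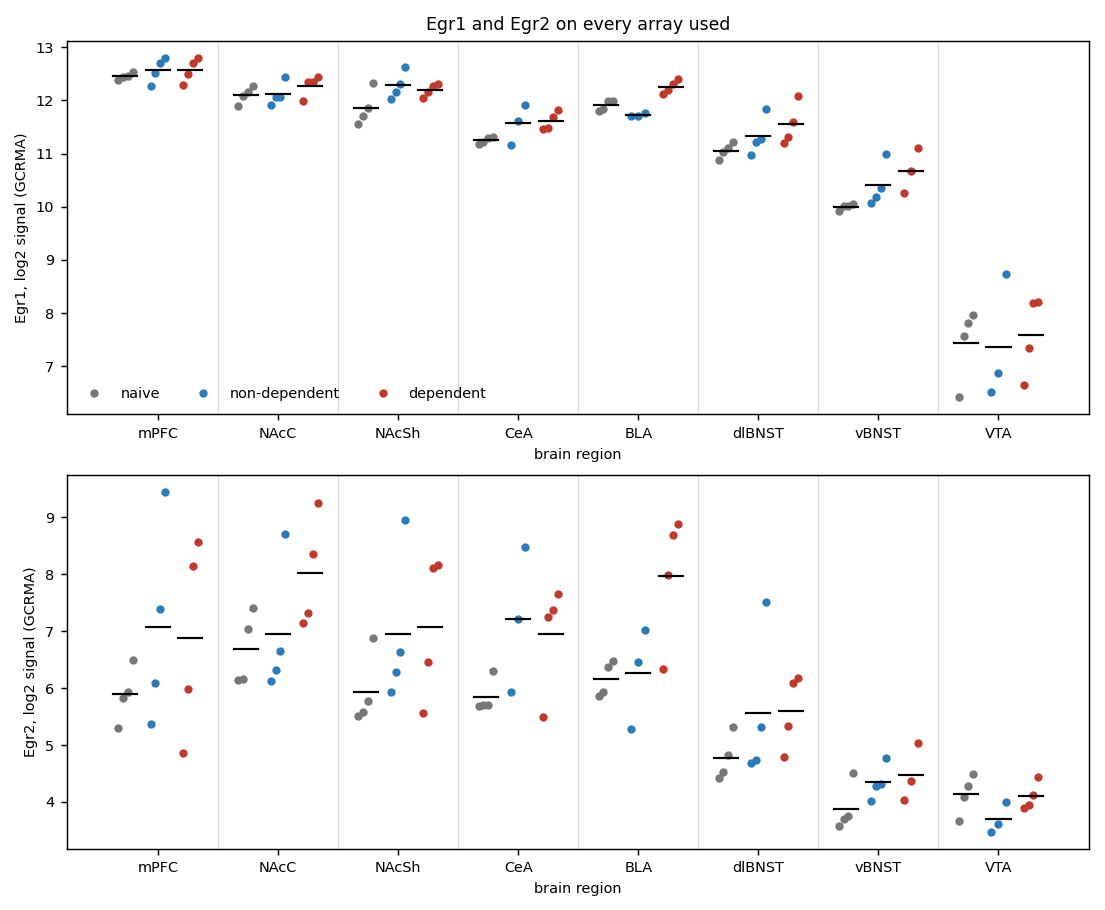
Log2 GCRMA signal of Egr1 (upper panel) and Egr2 (lower panel) on each of the 92 arrays used, by brain region and group (grey naive, blue non-dependent, red dependent), with a bar at each group mean. Naive Egr1 arrays are most spread in the VTA (6.42 to 7.97), and Egr2 in the drinking groups reaches 9.44 in the mPFC and 9.25 in the NAcC while no naive array exceeds 7.41.

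Egr2, best known from myelinating Schwann cells and in neurons an activity-induced factor, differed by more and varied by more. It was higher in dependent than in naive rats in 7 of 8 regions, with a mean of 0.97 over regions. In the BLA the naive arrays read 5.86, 6.37, 5.93 and 6.48, the 3 non-dependent 5.29, 6.46 and 7.03, and the dependent 7.99, 6.34, 8.89 and 8.69. Of the 4 dependent arrays, 3 were above every other BLA array and 1 lay among the naive ones (1.82 ± 0.50 over naive, limma adjusted p = 0.772, and 1.45 without the arrays of weak hybridization controls). In the NAcC the naive values 7.04, 6.14, 6.16 and 7.41 and the dependent values 7.14, 9.25, 7.32 and 8.36 overlapped (1.33 ± 0.56, adjusted p = 0.516), and the difference was 1.56 without those arrays, while that between naive and non-dependent rats there went from 0.26 to -0.32 and that between non-dependent and dependent rats from 1.07 to 1.88.

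Non-dependent Egr2 was less even. In the CeA it read 7.22, 5.93 and 8.48 against naive values of 6.30, 5.71, 5.70 and 5.69 (1.36 ± 0.55, limma adjusted p = 0.719), and dependent rats had 7.26, 7.65, 5.50 and 7.38. In the VTA the order turned, with non-dependent values of 3.48, 4.00 and 3.62 below most of the naive ones (4.09, 3.67, 4.49 and 4.27), a difference of -0.43 ± 0.21 (adjusted p = 0.744). The non-dependent mean there, 3.70, lay under the limit of 4, so Egr2 was tested in the VTA only through the other groups. The VTA was the 1 region where dependent rats were not above naive ones in Egr2, at -0.029 ± 0.19.

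Fos, the founding member of AP-1, had no difference past the threshold, but its values spread apart in the drinking groups. Dependent rats had the higher mean in 7 of 8 regions, from -0.050 in the VTA to 1.33 ± 0.62 in the BLA (limma adjusted p = 0.828). Without the arrays of weak hybridization controls the BLA difference was 0.32 ± 0.63 and that of the NAcC -0.16 ± 0.38 in place of 0.31. In the BLA the naive arrays read 7.13, 7.09, 8.16 and 8.14, the non-dependent 6.08, 7.67 and 7.44, and the dependent 9.97, 6.82, 9.08 and 9.95. In the vBNST they read 7.53, 6.90, 7.28 and 7.91 in naive rats, 7.39, 7.40, 9.85 and 6.60 in non-dependent and 7.77, 8.84 and 9.31 in dependent rats (1.24 ± 0.61 from naive to dependent, adjusted p = 0.368). In both regions the dependent group held arrays above all naive ones and 1 that was not.

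Non-dependent Fos stood out by single arrays. In the NAcC the values were 6.61, 6.14, 6.61 and 10.67, in the NAcSh 10.72, 7.57, 8.40 and 7.98, in the mPFC 9.09, 7.74, 6.01 and 10.47, and in the vBNST 7.39, 7.40, 9.85 and 6.60. Across regions 9, a limit chosen after the values were seen, was exceeded on 7 of 29 non-dependent arrays in 6 regions and 7 of 31 dependent arrays in 4 regions, and on 0 of 32 naive arrays, whose highest was 8.69. Of the 4 arrays with the weakest hybridization controls, 3 had Fos above 9 (NAcC non-dependent 4, BLA dependent 1 and BLA dependent 4, at 10.67, 9.97 and 9.95) and the other had 8.79. The high NAcC array had the lowest controls of all used (7.44, against 9.36 to 9.88 on the other non-dependent NAcC arrays), while the high NAcSh array had 9.61 against 9.58 to 9.88. Without the NAcC array the naive to non-dependent difference of Fos there was -0.63 ± 0.38 in place of 0.43. Over the 92 arrays the deviation of Fos from its group mean had a correlation of -0.31 with that of the hybridization controls and -0.081 with that of the neuron markers, given as a description.

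**Figure D4:**
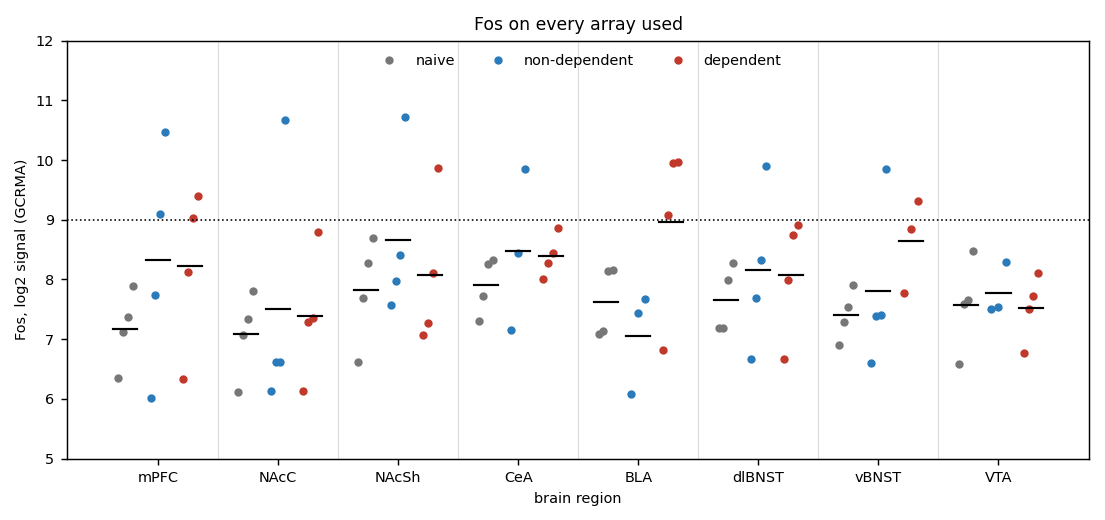
Log2 GCRMA signal of Fos on each of the 92 arrays used, by brain region and group (grey naive, blue non-dependent, red dependent), with a bar at each group mean and a dotted line at 9. All 32 naive arrays lie between 6.12 and 8.69, and 7 non-dependent and 7 dependent arrays lie above the line.

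In non-dependent rats the arrays with high Fos were often the highest in other members too, which was less so in dependent rats. In each group and region the array with the highest Fos was marked, and the other 8 members were checked for having their highest value on it. This was so in 44 of 64 cases (68.8%) in non-dependent rats, in 22 of 64 (34.4%) in naive rats and in 22 of 64 in dependent rats. A match is easier by chance among 3 arrays, as in the non-dependent CeA, BLA and VTA and the dependent vBNST, than among 4. The share over all genes was not taken. In the CeA non-dependent array 4 was the highest for all 8 others, and in the mPFC (array 4), NAcC (array 4) and NAcSh (array 1) for 7 of 8. In the mPFC that array read 10.47 for Fos, 9.44 for Egr2, 7.69 for Nr4a1, 7.16 for Dusp1 and 7.11 for Arc, where the other 3 had at most 9.09, 7.39, 6.77, 6.17 and 5.04. The highest-Fos array carried number 4 in the mPFC, NAcC and CeA, 1 in the NAcSh, 2 in the BLA and dlBNST and 3 in the vBNST and VTA, and the labels do not say which came from the same rat.

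For Fos, Egr2 and Egr1 the median spread within groups was wider in both drinking groups than in naive rats. The median over regions of the SD of Fos was 0.62 for naive, 1.38 for non-dependent and 1.06 for dependent rats. For Egr2 it was 0.41, 1.23 and 0.98, and for Egr1 0.12, 0.31 and 0.22. Over all genes it was 0.18, 0.18 and 0.20. The naive SD of Fos was below the non-dependent one in 7 of 8 regions and below the dependent one in 6, while Arc and Nr4a1 had no such order (Nr4a1 0.20, 0.19 and 0.23). These spreads were not tested.

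The BLA held 6 of the 7 member tests with an unadjusted p under 0.05 between non-dependent and dependent rats. There 6 of the 7 members tested had an unadjusted p under 0.05 (5.81% of all genes did) and all 7 were higher in dependent rats, but none passed after adjustment in limma (adjusted p 0.701 to 0.775 for the 6), and the non-dependent group had 3 arrays. Egr1 read 11.71, 11.77 and 11.71 in non-dependent and 12.19, 12.11, 12.40 and 12.31 in dependent rats, apart from each other and also from the naive values of 11.80, 11.84, 11.99 and 11.99. The difference was 0.52 ± 0.10. Fosb read 5.19, 5.29 and 5.72 against 6.19, 6.10, 5.93 and 6.21 (0.71 ± 0.21), also without overlap. The remaining 4 differed by 1.90 ± 0.67 (Fos), 1.72 ± 0.54 (Egr2), 0.54 ± 0.23 (Homer1) and 0.33 ± 0.14 (Nr4a1), and of these only Nr4a1 did not overlap. Between these groups 3 of 51 member tests did not overlap with dependent rats higher, all in the BLA, where all gene tests gave 2.75% over the 8 regions and 3.89% in the BLA. Nr4a1 counts among these 3 and among the 6 above, although its non-dependent mean of 3.97 lay under the limit of 4. It was thus tested in the BLA only through the higher groups.

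Several other measures moved with the BLA values. Cortical glutamatergic neuron markers (3 of 4 listed genes measured, 2 above the limit) were at 6.61 in non-dependent, 6.72 in naive and 7.07 in dependent rats. Neuron markers did not overlap (10.88 to 10.98 in non-dependent, 11.03 to 11.05 in dependent rats), while GABA neuron markers were 0.32 and microglial ones 0.22 lower in the dependent group. Dependent arrays 1 and 4 had hybridization controls of 7.76 and 7.97, while the other BLA arrays of the drinking groups had 9.57 to 9.94 and naive array 3 had 8.02. Without dependent arrays 1 and 4 Fos differed by 0.89 in place of 1.90 and Nr4a1 by 0.12 in place of 0.33, while Egr1 stayed at 0.53, Fosb at 0.61 and Egr2 at 1.35. With the left-out non-dependent array put back, Fosb differed by 0.15, Nr4a1 by 0.041 and Egr1 by 0.43. The part of these marker shifts in the values was not tested.

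Fosb had a higher mean in dependent than naive rats by 0.40 to 0.78 in 4 of the 6 regions where it could be tested, with adjusted p in limma of 0.414 or more. In the dlBNST naive arrays read 4.78, 4.34, 4.52 and 4.51, non-dependent arrays 5.27, 5.56, 4.39 and 3.84, and dependent arrays 4.41, 5.15, 5.51 and 5.47. In the CeA dependent arrays read 5.81, 5.80, 4.63 and 5.86 against naive values of 5.48, 4.57, 5.17 and 4.52. In the NAcC, its region of highest level, the naive and dependent means were 7.13 and 7.21, a difference of 0.078 ± 0.48. Without the arrays of weak hybridization controls that difference was 0.49 ± 0.42. The probe set cannot separate the full and the shortened splice form.

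The genes that act at the synapse or on signaling gave no group difference past the threshold. Homer1 in the BLA read 10.21, 10.98, 10.20 and 10.15 on naive, 9.34, 9.96 and 10.30 on non-dependent, and 10.56, 10.26, 10.47 and 10.35 on dependent arrays, so the non-dependent group was lower than naive by 0.52 ± 0.23 (limma adjusted p = 0.785). In the VTA it read 6.92, 6.66 and 6.49 in non-dependent and 7.28, 7.17, 7.40 and 6.73 in dependent rats (0.45 ± 0.19, adjusted p = 0.293), the lowest adjusted p of any member between those groups. In the NAcC non-dependent Homer1 lay wholly below naive (10.63 to 10.95 against 10.97 to 11.01), 1 of 2 member tests apart in that direction between naive and non-dependent rats, the other being Egr1 in the BLA, where all gene tests gave 3.81%. In the reverse direction the 1 member test apart was Egr1 in the vBNST, where all gene tests gave 2.43%.

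Dusp1 in the mPFC read 5.13, 5.67, 4.90 and 6.11 on naive, 6.17, 6.17, 5.06 and 7.16 on non-dependent, and 5.26, 6.13, 6.01 and 5.30 on dependent arrays. The non-dependent mean was 0.69 above naive (adjusted p = 0.379 in limma), the lowest adjusted p of any member in that comparison, although the ranges overlapped. Nr4a1 in the mPFC had means of 6.38, 6.77 and 6.64. Arc in the mPFC had 4.41 to 5.74 on naive, 4.01 to 7.11 on non-dependent and 4.57 to 5.02 on dependent arrays. Junb was not tested in any region, and its region differences between naive and dependent rats ran from -0.16 to 0.053.

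Across the 92 arrays the members' deviations from their own group and region means varied together in part. The highest correlations were between Fos and Egr2 (Pearson r = 0.76), Arc and Nr4a1 (0.73), Fosb and Egr2 (0.69) and Nr4a1 and Dusp1 (0.65). Homer1 stood apart, with a median r of 0.076 with the other members. The Fos and Egr2 correlation was 0.33 over 32 naive, 0.91 over 29 non-dependent and 0.69 over 31 dependent arrays. All members of an array share its hybridization and amplification, and arrays may share rats, so these are descriptions.

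**Figure D5:**
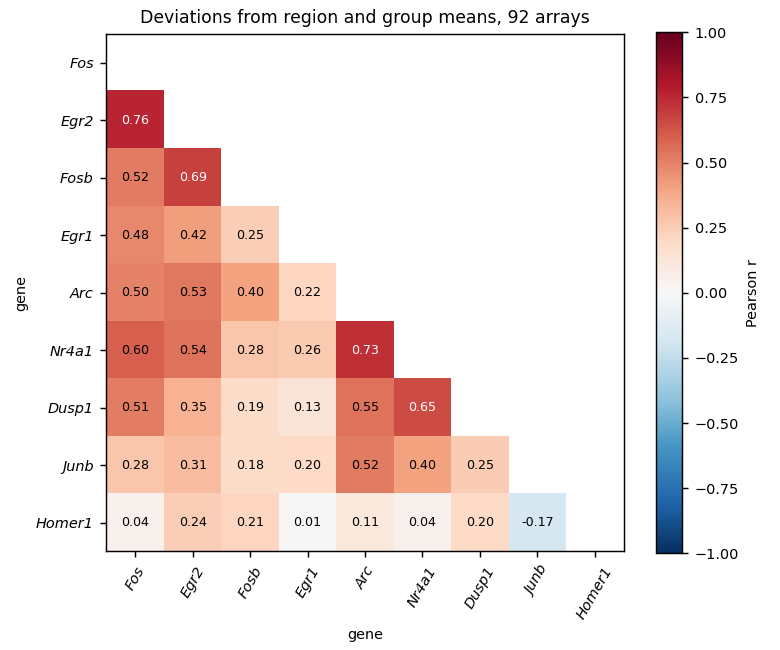
Pearson correlation between the deviations of each pair of immediate early genes from their region and group means over 92 arrays, with the genes on both axes and the colour scale from -1 to 1. Fos, Egr2, Fosb, Arc and Nr4a1 share positive values of up to 0.76, and the Homer1 row stays between -0.17 and 0.24.

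Over the 8762 genes compared, the non-members whose deviations were most like the mean of the members were Klf4 (r = 0.67), Klf2 (0.66), Tiparp (0.66), Rgs2 (0.64), Nr4a3 (0.64), Mcl1 (0.60), Sesn1 (0.58), Coq10b (0.55), Bcl6 (0.53) and Fastkd3 (0.53). The median over all genes was 0.013. Of these 10, 5 stood on a list of 39 further rapid primary response genes: Klf4, Tiparp, Rgs2, Nr4a3 and Mcl1. The list was chosen with earlier results of these data known, so this overlap is a description.

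Of that list 36 genes were on the array. Averaged over regions 18 could be tested, and 3 passed between naive and dependent rats, all of them higher: Nr4a3, the sister of Nr4a1 (0.48 ± 0.11, limma adjusted p = 0.0259), Plk2, a kinase of the synapse (0.30 ± 0.078, adjusted p = 0.0353), and Klf4, a zinc-finger factor (0.31 ± 0.087, adjusted p = 0.0488). The median over the 18 was 0.092, and 14 were higher in dependent rats, where 35.7% of all genes were. Within regions 0 of 146 tests passed in any comparison. Between naive and dependent rats 12 were higher and 3 lower at an unadjusted p under 0.05, together near the 11.3% of all gene tests. Of all gene tests, 4.14% were under 0.05 and higher in dependent rats. Of the genes higher in a single region Plk2 in the CeA had the smallest unadjusted p, at 0.50 ± 0.13 (adjusted p = 0.467).

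Slower activity-regulated genes come after the first wave and in part need its proteins. Of 24 listed, 20 were on the array and 17 could be tested in the average, of which 0 passed in limma between naive and dependent rats, with 2 at an unadjusted p under 0.05, both higher, where 25.8% of all genes had one. Vgf, a secreted neurotrophic precursor, was nearest at 0.17 ± 0.051 (adjusted p = 0.0543). Within regions 0 of 116 tests passed in any comparison. The opioid precursor Pdyn in the VTA had a difference of 0.93 ± 0.22 between non-dependent and dependent rats (adjusted p = 0.138) and the axon growth gene Nrn1 there one of -1.27 ± 0.38 (adjusted p = 0.191), and Bdnf averaged -0.34 ± 0.13 between naive and non-dependent rats (adjusted p = 0.208).

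Of 33 upstream kinases and factors 27 were on the array and tested in the average, and 2 passed between naive and dependent rats in opposite directions. Rps6ka5, the kinase MSK1 that phosphorylates CREB and histone H3 at these genes, was higher by 0.46 ± 0.072 (limma adjusted p = 0.00499), and Map2k2, the kinase MEK2 above ERK, differed by -0.28 ± 0.058 (adjusted p = 0.0145). The median of the 27 was 0.015. Rps6ka5 also had the smallest unadjusted p of the list within regions, in the vBNST at 0.91 ± 0.18 (adjusted p = 0.0813). Creb1 averaged -0.81 ± 0.20 in non-dependent against naive rats (adjusted p = 0.0679).

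Of 22 dimer partners, corepressors and scaffold partners 21 were on the array and 11 tested in the average, of which 1 passed between naive and dependent rats: Maf, a leucine-zipper factor (0.21 ± 0.050, limma adjusted p = 0.0245). The median was 0.072. The corepressor Nab1, which binds Egr factors, averaged -0.14 ± 0.058 in non-dependent against naive rats (adjusted p = 0.242). The 4 lists were tested in the same fit as all genes, where 7.14% passed between naive and dependent rats.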

How the data were processed

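Signals of 96 Affymetrix RN230.2 arrays (8 regions, 3 groups, 4 per group and region) had been normalized by the authors with GCRMA and deposited as log2 values for 31099 probe sets. Submitters' notes name GCRMA 2.36.0 and R 3.03. From 30 or 50 ng of RNA, amplification preceded hybridization, which can widen the spread of scarce transcripts. The number of arrays limits the precision. The rule's 4 arrays were left out. The 20832 probe sets naming 1 gene gave 14218 genes, each by its brightest probe set. Genes with a mean above 4 were tested with limma 3.58.1 in R 4.3.3, in 1 fit of 3 group means per region, on 12 region-centred averages, among regions of naive rats and for the interaction of region and group, with Benjamini-Hochberg adjustment over all genes tested and a threshold of 0.05. The fits were tested on simulated data. Named genes were all members, up to 4 genes past the threshold of each list and comparison or the smallest p in each direction, of which some are given, and the 10 most alike. The members, lists and markers were chosen with earlier results of these data known. Replicate numbers recur in every group, but did not pair arrays: of 88 same-numbered pairs of groups within regions, 28 had correlated deviations above 0.1 (median 0.0042). Alternatives were filters, scalings, probe set choice, array weights, all 96 arrays, the block and leaving out arrays or regions. Labels do not say which arrays share a rat, so p-values measure the spread between these samples.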

Additional observations from a re-analysis of the deposited data

Results flagged for a closer look

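Of 207 groups of 4 arrays or 4 averages, 14 (6.76%) held a value whose gap to the others exceeded 0.829 of the group's range, the 95% limit of Dixon's test, which chance alone passes in about 5% of groups. For Fos in the NAcC non-dependent array 4 read 10.67, with the others at 6.14 to 6.61. For Fosb in the mPFC naive array 3 read 6.89 (others 4.96 to 5.21) and non-dependent array 4 read 7.54 (5.05 to 5.44), and in the CeA dependent array 3 read 4.63 (5.80 to 5.86). Egr2 in the CeA read 6.30 on naive array 1 (5.69 to 5.71), Nr4a1 in the BLA 4.35 on naive array 1 (3.95 to 4.00) and Dusp1 in the BLA 6.21 on dependent array 1 (4.63 to 4.80). Homer1 read 11.09 on naive array 2 in the mPFC, 11.01 on naive array 4 in the NAcC, 10.21 on non-dependent array 2 in the NAcSh, 10.98 on naive array 2 in the BLA and 8.44 on naive array 3 in the dlBNST, some of them in groups that differed by under 0.1. Junb in the NAcSh read 2.54 on non-dependent array 2, and its non-dependent average of number 4 was 0.17.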

How the results depend on the processing

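Within regions no member passed under any alternative, except that array weights gave 1 between non-dependent and dependent rats (Egr2 in the VTA, 0.58, limma adjusted p = 0.0496). The non-dependent mean of Egr2 there was 3.70, under the limit of 4, so it was tested in the VTA only through the other groups. Averaged over regions, the 2 members that passed between naive and dependent rats became 1 with a mean above 6, which leaves Egr2 untested, 0 with all 96 arrays, and 0 to 3 without 1 averaged value. Chosen after seeing the data, leaving out the BLA or the dlBNST gave 0 and leaving out the vBNST gave 1 (adjusted p = 0.0524, 0.131 and 0.105 for Egr1; 0.0504 and 0.0833 for Egr2 in the first pair). Where no cause is given, the cause was not tested. Fosb passed without dependent average 3 (adjusted p = 0.0451) and, as a later choice, without the mPFC (0.0363). Among naive regions, 6 members became 2 with a mean above 6, which tests fewer genes. No direction reversed among these results, but without the 4 arrays of lowest hybridization controls, tried after seeing the data, some uncalled member differences in the NAcC and BLA changed sign, among them Fos in the NAcC from 0.31 to -0.16 (naive to dependent) and from 0.43 to -0.63 (naive to non-dependent), and Egr2 from 0.26 to -0.32 (naive to non-dependent). Replicate numbers did not pair arrays. With the replicate block Fos also passed (0.63, limma adjusted p = 0.0326), and 3 members in all. The consensus correlation of arrays of 1 group and number was -0.0095, so that fit took the arrays as nearly independent. Arrays of different regions may share rats, so it may understate the spread between rats. Dim probe sets limit what can be said of Junb and Arc.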
